A study of Homo sapiens with 45 samples.

Results

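A set of 10 genes of the cytosolic and mitochondrial heat shock protein families was followed through 45 single cells, as listed rows of the deposited count and TPM tables, so that the members were 10 of 23045 genes. They were HSPA1A, HSPA1B, DNAJB1, HSPH1, HSP90AA1 and HSPB1, taken as the 6 inducible members, and HSPA8, HSP90AB1, HSPD1 and HSPE1, taken as the 4 constitutive members. Every cell came from the human embryonic stem cell line H1, at passage 40, kept on Matrigel in mTESR1 medium and dissociated with Accutase. Live cells (DAPI-) and fixed cells (DAPI+) were each processed either with FRISCR, which was devised to recover the RNA of single cells after fixation, or with a simple lysate made with Triton X-100, a detergent. The fixative used for these cells is not given in the sources used here, and the extraction text of the labels describes cortical tissue. The groups held 15 live FRISCR, 12 fixed FRISCR, 11 live Triton and 7 fixed Triton cells. By a code in the titles, the cells belong to 2 library sets, with 8 and 7, 6 and 6, 5 and 6, and 4 and 3 cells per group in that order. No separate cultures are named, so each group counts as 1 sample and no test was run. Intervals given below cover only the counting of reads or of cells, not differences between cultures.

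Heat shock proteins are chaperones that bind unfolded or partly folded proteins, hold them in solution and help them fold. HSPA (Hsp70) proteins bind short hydrophobic stretches in a cycle driven by ATP, in which DNAJ (Hsp40) proteins deliver the client and HSPH1 (Hsp110) acts as a nucleotide exchange factor. Hsp90 proteins act later, on nearly folded kinases, receptors and other clients, and HSPB1 is a small heat shock protein that holds clients without using ATP. HSPD1 (Hsp60) and its lid HSPE1 (Hsp10) form the folding chamber of the mitochondrial matrix. HSPA8 and HSP90AB1 are made constantly, whereas HSPA1A, HSPA1B and DNAJB1 are textbook targets of the heat shock factor HSF1, which binds repeats of a short unit known as the heat shock element.

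The promoters of the members were searched for such repeats, since HSF1 binds them. RefSeq windows of GRCh38.p14, from 250 bases before to 50 bases after each annotated start, were matched by symbol for all 10 members. A repeat of 2 units was spelled GAANNTTC, where N is any base, which reads the same on both strands. A repeat of 3 units adds a further GAA after, or a further TTC before, such a match, again with 2 bases between, so that it was found on both strands and always holds the shorter form. The longer form occurred in 0.490% of 35116 windows (0.608% of 27305 genes) and the shorter in 6.77% of windows (8.21% of genes). Of the members, HSPA8, HSP90AB1, HSP90AA1 and HSPD1 had a window with the longer form, 4 of 10, and 8 of 10 had one with the shorter form. The windows of HSPH1 and HSPE1 held neither spelling, which says only that these letters are not in these windows. The following stretches hold the longer form, with its units and the bases between them in capitals, and are shown because 3 of these 4 genes were among the most abundant members.
HSPA8 upstream match (chr11:123062339-123062381, minus strand): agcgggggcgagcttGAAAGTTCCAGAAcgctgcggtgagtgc
HSPA8 downstream match (chr11:123062164-123062206, minus strand): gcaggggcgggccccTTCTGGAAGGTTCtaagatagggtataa
HSP90AB1 (chr6:44247763-44247858, plus strand): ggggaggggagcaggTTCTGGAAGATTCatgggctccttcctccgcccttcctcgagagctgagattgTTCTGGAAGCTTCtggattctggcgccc
HSP90AA1 (chr14:102087105-102087147, minus strand): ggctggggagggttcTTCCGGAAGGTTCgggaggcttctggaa
HSPD1 (chr2:197500053-197500090, minus strand): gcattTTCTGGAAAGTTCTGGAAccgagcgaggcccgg
The next stretches hold the shorter form only, again in capitals, and belong to 4 of the 5 less abundant inducible members. The HSPA1A and HSPA1B stretches come from neighbouring, nearly identical genes.
HSPA1A (chr6:31815422-31815459, plus strand): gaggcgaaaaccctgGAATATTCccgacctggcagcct
HSPA1B (chr6:31827618-31827655, plus strand): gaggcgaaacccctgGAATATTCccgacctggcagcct
DNAJB1 (chr19:14518422-14518489, minus strand): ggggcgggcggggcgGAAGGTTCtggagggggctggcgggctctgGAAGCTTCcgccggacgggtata
HSPB1 (chr7:76302476-76302513, plus strand): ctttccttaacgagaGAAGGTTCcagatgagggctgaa
HSPD1 and HSPE1 face away from each other, with first annotated starts 105 bases apart on chromosome 2. The stretch from one start to the other, chr2:197500274-197500379 on the plus strand, is shown because the levels of this pair are compared below. Its first capital is the start of HSPD1, which is read from the minus strand, and its last capital is the start of HSPE1.
HSPD1 and HSPE1: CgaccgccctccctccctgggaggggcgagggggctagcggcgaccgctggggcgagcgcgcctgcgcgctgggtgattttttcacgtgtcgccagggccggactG
The 3-unit match of HSPD1 lies before its other annotated start, outside this stretch. These matches describe the sequence and were not tested for binding.

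Total counts were 3388417 to 6594043 per cell, and medians of the groups ran from 4301153 to 4994021. All 8 stem cell markers reached 20 CPM (counts per 1000000 counts) in every group. Markers of fibroblasts, neural cells, endoderm, mesoderm and trophoblast were absent only in part. DCN, LUM, COL3A1, SOX1, SOX17, GATA6, FOXA2, T, MIXL1, MESP1 and CGA were listed at 0 throughout. In live FRISCR cells 3 of 6 fibroblast and 3 of 5 neural markers reached 20 CPM. The endoderm marker AFP reached it in fixed Triton cells, and 1 of 4 trophoblast markers in fixed FRISCR cells. Summed trophoblast markers reached 123 TPM in the highest live FRISCR cell. The mesoderm marker EOMES had counts in fixed FRISCR and live Triton cells, below 20 CPM. Fixed Triton cells stood apart from the other groups. After thinning to 1000000 counts they had a median of 5091 genes detected, against 8915.5 to 9606 in the other groups, and the row TVAS5, which matches no gene symbol, took a median of 26.3% of their counts, against 0.773% to 6.90%. The 10 members together took 0.342% (0.171% to 0.419%) of the counts of fixed Triton cells, below every cell of the other groups, where medians were 1.05% (0.854% to 1.33%) in live FRISCR, 1.01% (0.912% to 1.36%) in fixed FRISCR and 0.992% (0.800% to 1.21%) in live Triton cells.

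Levels of different genes were compared in TPM (transcripts per 1000000 transcripts), which allows for length, and are given as lowest, median and highest cell. HSP90AB1, the constitutive cytosolic Hsp90, had the highest median in the first 3 groups, at 2037, 2839 and 3657 TPM for live FRISCR, 1753, 2025 and 2573 for fixed FRISCR and 2020, 2588 and 3684 for live Triton cells. In fixed Triton cells it stood at 222, 368 and 768 TPM, with no overlap with any other group. HSPA8, the constitutive Hsp70 that also strips clathrin from vesicles, followed, at 977, 2056 and 2777 TPM for live FRISCR, 907, 1683 and 3568 for fixed FRISCR, 1139, 2046 and 3562 for live Triton and 11.5, 458 and 613 for fixed Triton cells. The fixed Triton cells again lay below all others. The median of HSP90AB1 exceeded that of HSPA8 by more than 1 SD over cells in live FRISCR cells, and by less in fixed FRISCR and live Triton cells.

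The mitochondrial pair had near-equal medians in both live groups. HSPD1 stood at 656, 1167 and 1725 TPM for live FRISCR, 746, 1015 and 1607 for fixed FRISCR, 716, 1031 and 1646 for live Triton and 18.1, 89.7 and 292 for fixed Triton cells. HSPE1 stood at 453, 1102 and 1354 TPM for live FRISCR, 926, 1338 and 1566 for fixed FRISCR, 687, 1008 and 1253 for live Triton and 430, 1108 and 1322 for fixed Triton cells. So HSPD1 was low in every fixed Triton cell, while HSPE1 there overlapped the range of the other groups and was the member with the highest median.

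HSP90AA1, the inducible Hsp90, was the single inducible member at a level near those of the constitutive ones outside fixed Triton cells. It stood at 461, 803 and 1263 TPM for live FRISCR, 678, 937 and 1092 for fixed FRISCR, 421, 577 and 792 for live Triton and 32.7, 259 and 266 for fixed Triton cells. Outside fixed Triton cells, its TPM was above that of HSPB1 in every cell. HSPB1 stood at 30.2, 110 and 231 TPM for live FRISCR, 73.5, 126 and 363 for fixed FRISCR, 68.1, 119 and 151 for live Triton and 0, 93.0 and 237 for fixed Triton cells, ranges that overlap in all groups. DNAJB1, the Hsp40 induced together with HSPA1A, stood at 1.21, 92.9 and 152 TPM for live FRISCR, 47.9, 92.9 and 293 for fixed FRISCR and 34.0, 111 and 189 for live Triton cells. HSPH1 was close by, at 13.7, 74.7 and 153 TPM for live FRISCR, 40.9, 72.7 and 116 for fixed FRISCR and 21.1, 95.0 and 109 for live Triton cells. The medians of HSPB1, DNAJB1 and HSPH1 did not differ beyond 1 SD from one to the next in these 3 groups.

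**Figure D1:**
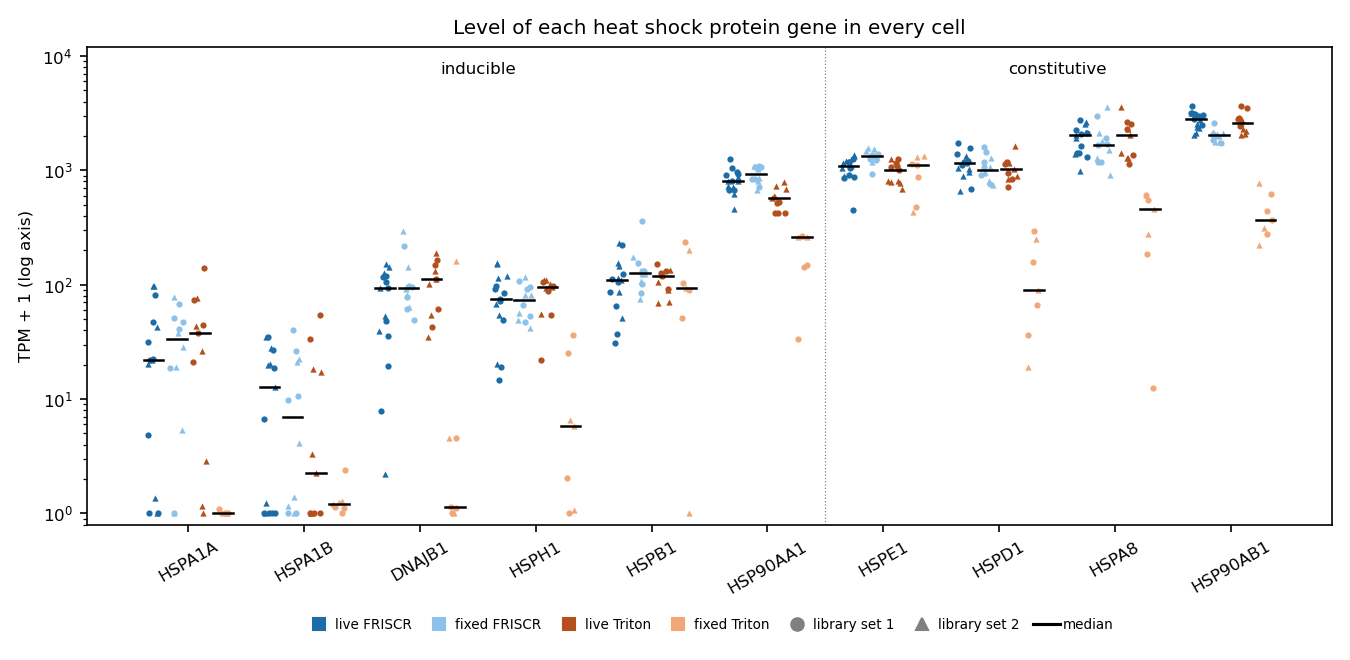
TPM + 1 of the 10 members (log axis) in each of the 45 cells, coloured by group, with circles for library set 1 and triangles for set 2 and a bar at each group's median. HSPA1A and HSPA1B are lowest outside fixed Triton cells, HSP90AA1 is near the constitutive members, and fixed Triton cells fall away for 8 genes but not for HSPB1 and HSPE1.

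HSPA1A and HSPA1B, the stress-inducible Hsp70 genes, were the least abundant members outside fixed Triton cells. HSPA1A stood at 0, 21.1 and 97.1 TPM for live FRISCR, 0, 32.2 and 77.4 for fixed FRISCR, 0, 36.5 and 140 for live Triton and 0, 0 and 0.10 for fixed Triton cells. HSPA1B stood at 0, 11.8 and 34.2 TPM for live FRISCR, 0, 6.00 and 38.9 for fixed FRISCR, 0, 1.26 and 53.8 for live Triton and 0, 0.21 and 1.41 for fixed Triton cells. After thinning, HSPA1A had a count in 12 of 15 live FRISCR cells (80.0%, exact 95% Clopper-Pearson interval 51.9% to 95.7%), 10 of 12 fixed FRISCR, 9 of 11 live Triton and 0 of 7 fixed Triton cells, where 0 allows up to 41.0% of cells. These bounds treat the cells as independent draws from 1 sample and do not cover differences between cultures. They limit cells with a count, not cells that express the gene. DNAJB1 had a count in 14 of 15, 12 of 12, 11 of 11 and 4 of 7 cells in the same order, and HSPA8 in all cells.

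The rows of HSPA1A and HSPA1B cannot be read as separate genes with any confidence. Of the 50-base words of the HSPA1A transcript, 72.6% also occur in HSPA1B, and the authors' estimated counts had to divide such reads. In live FRISCR cells 9 had a value above 0 in both rows, 3 only in HSPA1A, 1 only in HSPA1B and 2 in neither. In live Triton cells 5 had both, 5 only HSPA1A and 1 only HSPA1B. The division differed in fixed Triton cells, where 1 had both, 0 only HSPA1A, 5 only HSPA1B and 1 neither. Summed over both rows, the medians were 37.9 TPM for live FRISCR, 42.2 for fixed FRISCR, 36.5 for live Triton and 0.21 for fixed Triton cells. The sum was 2.19%, 2.25% and 1.75% of the HSPA8 level of the same cell at the median of the first 3 groups, and 0.0473% in fixed Triton cells. Words shared with another gene also made up 27.2% of HSPE1, 24.8% of HSPD1, 18.8% of HSP90AB1, 17.5% of HSP90AA1 and 15.4% of HSPA8, against 2.57% of DNAJB1 and 0 of HSPH1. The pseudogene row HSP90AB2P carried 95.6 to 159 CPM in the groups. HSPA6, another Hsp70 gene that is induced by stress, was listed at 0 in every group.

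Among live FRISCR cells, the 5 less abundant inducible members varied most. In live FRISCR cells the coefficient of variation of CPM was 107% for HSPA1A, 102% for HSPA1B, 66.7% for DNAJB1, 58.6% for HSPH1 and 53.6% for HSPB1. It was 22.1% for HSP90AA1, 29.0% for HSPA8, 15.1% for HSP90AB1, 25.4% for HSPD1 and 24.5% for HSPE1. These differences go along with level: over all genes with a mean of 20 to 100 CPM in these cells the median was 84.8% (quartiles 67.3% and 106%), with 100 to 500 CPM 44.8% (35.5% and 56.8%), and with 500 to 5000 CPM 25.6% (20.4% and 33.9%). Within their own level HSPH1 and HSPA1A lay above the upper quartile in live FRISCR cells, and HSP90AB1 and HSPB1 below the lower quartile. DNAJB1, with a mean of 98.0 CPM, was just under the lower quartile of its level there, but above the upper quartile of the level from 100 CPM. In fixed FRISCR cells DNAJB1 was above the upper quartile of its level, at 66.6% against 59.0%, and in live Triton cells between the quartiles, at 49.2%. In fixed FRISCR cells HSPH1 varied by 35.2% and HSP90AB1 by 8.85%, and in live Triton cells by 34.5% and 19.3%, so that HSP90AB1 was below the lower quartile of its level (19.6% and 19.7%) in these groups as well, while HSPH1 was not above the upper one. HSPA8 was above its upper quartile in these groups, at 41.6% against 31.2% in fixed FRISCR and 36.9% against 31.5% in live Triton cells. HSPB1 was again below its lower quartile, at 55.1% against 71.3% in fixed FRISCR and 24.7% against 57.5% in live Triton cells. So were HSP90AA1 (15.8%) and HSPE1 (15.5%) in fixed FRISCR cells. HSPE1, with a mean of 492 CPM, was also below it in live Triton cells, at 21.7% against 31.1%.

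Between fixed and live cells prepared by FRISCR, no member differed by more than 2-fold, while 3.34% of 7518 genes were more than 2-fold higher in fixed cells and 7.69% more than 2-fold lower. Folds are ratios of CPM from the summed counts of each group, set beside genes that reached 20 CPM in at least 1 of both groups, whose median log2 fold was -0.02. DNAJB1 moved most, from 97.7 CPM in live to 155 in fixed cells, or 1.58-fold (1.53 to 1.63), with log2 folds of 0.75 and 0.57 in library sets 1 and 2. Its median over cells was 92.9 TPM in both groups, and fixed FRISCR replicates 11, 2 and 10 were the highest fixed cells, at 293, 217 and 141 TPM. HSPE1 was 1.36-fold higher (1.34 to 1.38), at 734 against 538 CPM, and HSP90AA1 1.24-fold higher (1.23 to 1.25), at 1981 against 1596 CPM, each in the same direction in both sets. HSP90AB1 was 1.26-fold lower (1.25 to 1.27), at 3210 against 4050 CPM, with log2 folds of -0.45 and -0.21 in the sets. In TPM per cell the fixed and live ranges of DNAJB1, HSPE1, HSP90AA1 and HSP90AB1 all overlapped.

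HSPB1 was 1.37-fold higher, with a log2 fold of 0.88 in set 1 and 0.02 in set 2. HSPA1A, HSPA1B and HSPH1 did not keep to 1 direction, and HSPA8 and HSPD1 lay close to equality. The stress-inducible HSPA1A had a log2 fold of 0.13, made up of 0.63 in set 1 and -0.34 in set 2, HSPA1B one of -0.08, made up of 0.57 and -0.79, and HSPH1 one of 0.03, made up of 0.46 and -0.33. HSPA8 stood at 2480 CPM in fixed against 2437 in live cells, and HSPD1 at 1529 against 1516.

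In Triton lysates the picture differed. Of the members, 8 were more than 2-fold lower in fixed cells and none was more than 2-fold higher, while 58.5% of 7256 genes were lower by that much and 12.4% higher. The median log2 fold of all genes was -1.50, and this shift depends on the scaling. It was -0.48 with TMM factors and -0.30 with median-of-ratios factors, under which 5 and 4 members were more than 2-fold lower and 2, HSPB1 and HSPE1, more than 2-fold higher. Directions are therefore also given relative to that median, where HSPA1A stood at log2 -9.27, HSPA1B at -2.91, HSPH1 at -0.95 and DNAJB1 at -0.31. The sum of the HSPA1A and HSPA1B rows stood at -4.99.

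The HSPA1A row was close to empty in the fixed Triton cells, with 1 count over 7 cells against 3462 counts over 11 live cells. Its value also depends on how reads shared with HSPA1B were divided, which was not tested, so the sum of both rows is given below. The ratio of CPM was 1745-fold (313 to 68949) in favour of live cells, and without the cell that holds the count (fixed Triton replicate 2) HSPA1A was at least 487-fold lower, against a floor of 3 counts over the group. HSPA1B had 24 counts against 1013 and was 21.3-fold lower (14.2 to 33.4), 47.5-fold without fixed Triton replicate 2 and 11.6-fold without live Triton replicate 1. Summed over both rows, the counts were 25 against 4475, and the sum was 90.2-fold lower (61.0 to 140), 210-fold without fixed Triton replicate 2 and 60.0-fold without live Triton replicate 1. HSPH1 was 5.47-fold lower (5.12 to 5.85), at 33.1 against 181 CPM, and 10.8-fold lower without fixed Triton replicate 2. Its TPM in fixed cells was 0, 4.77 and 35.5, and the 2 highest fixed cells overlapped the lowest live one.

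DNAJB1 was 3.50-fold lower (3.29 to 3.73), at 38.8 against 136 CPM, but this value rests on a single cell. Fixed Triton replicate 5 held 161 TPM of DNAJB1, within the range of live Triton cells, whereas the other 6 cells held 0 to 3.56 TPM, and without it the gene was 58.5-fold lower. With median-of-ratios factors the log2 fold over all cells was -0.61. By library set the log2 fold was -6.45 in set 1 and -0.62 in set 2, which contains that cell.

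Among the constitutive members, HSPD1 was 6.01-fold lower (5.87 to 6.17), at 230 against 1383 CPM, HSP90AB1 4.22-fold lower (4.17 to 4.28), at 919 against 3880 CPM, and HSPA8 3.55-fold lower (3.49 to 3.60), at 711 against 2520 CPM. HSP90AA1 was 2.04-fold lower (2.00 to 2.07), at 556 against 1131 CPM. For these 4 genes the TPM of every fixed cell lay below that of every live Triton cell, as it did for 13.6% of the 7256 genes. That share covers genes of all levels from 20 CPM, whereas these 4 are abundant and abundant genes vary less between cells. A share among genes of like level was not computed. Relative to the median of all genes, HSPD1 stood at log2 -1.09, HSP90AB1 at -0.58, HSPA8 at -0.33 and HSP90AA1 at 0.47, so that HSP90AA1 was the one of these that stood above the middle gene. With median-of-ratios factors its log2 fold was 0.17 instead of -1.03.

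HSPB1 and HSPE1 were the exceptions. HSPB1 was 1.55-fold higher in fixed Triton cells (1.46 to 1.63), at 80.6 against 52.1 CPM, and HSPE1 1.47- to 1.52-fold higher, at 738 against 493 CPM, with the same direction in both library sets for each. Relative to the median of all genes they stood at log2 2.13 and 2.08. In TPM the ranges of fixed and live cells overlapped for both, and as ratios of mean TPM the log2 folds of HSPB1 and HSPE1 were 0.01 and -0.03. They are also the members with the shortest transcripts, 909 bases for HSPB1 and 950 for HSPE1 in GENCODE release 29, where the other 8 ran from 2264 (DNAJB1) to 5191 (HSPH1). Among all genes, the shortest 1422 (75 to 1898 bases) had a median log2 fold of -0.23, against -1.85, -2.07, -1.92 and -1.58 in the 4 classes of longer genes. Both members lay within the quartiles of the shortest class, -1.83 and 0.89. Within FRISCR the shortest genes had a median of 0.21, and HSPB1 and HSPE1, at 0.45 each, lay above their upper quartile of 0.40. The part of length in these values was not tested.

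**Figure D2:**
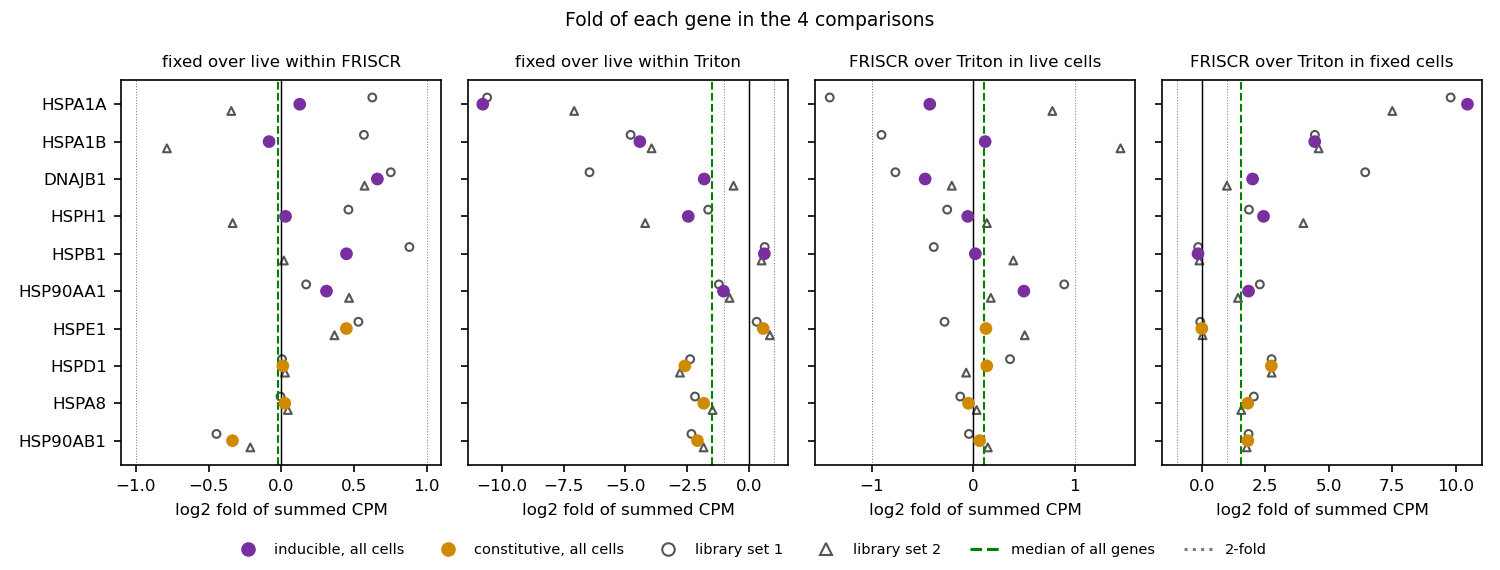
Log2 fold of summed CPM of each member in the 4 comparisons, with filled points for all cells, open circles and triangles for library sets 1 and 2, dashed lines at the median of all genes and dotted lines at 2-fold; the horizontal scales differ between panels. No member passes 2-fold within FRISCR over all cells, while 8 of 10 do within Triton, where HSPB1 and HSPE1 stand right of 0.

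**Figure D3:**
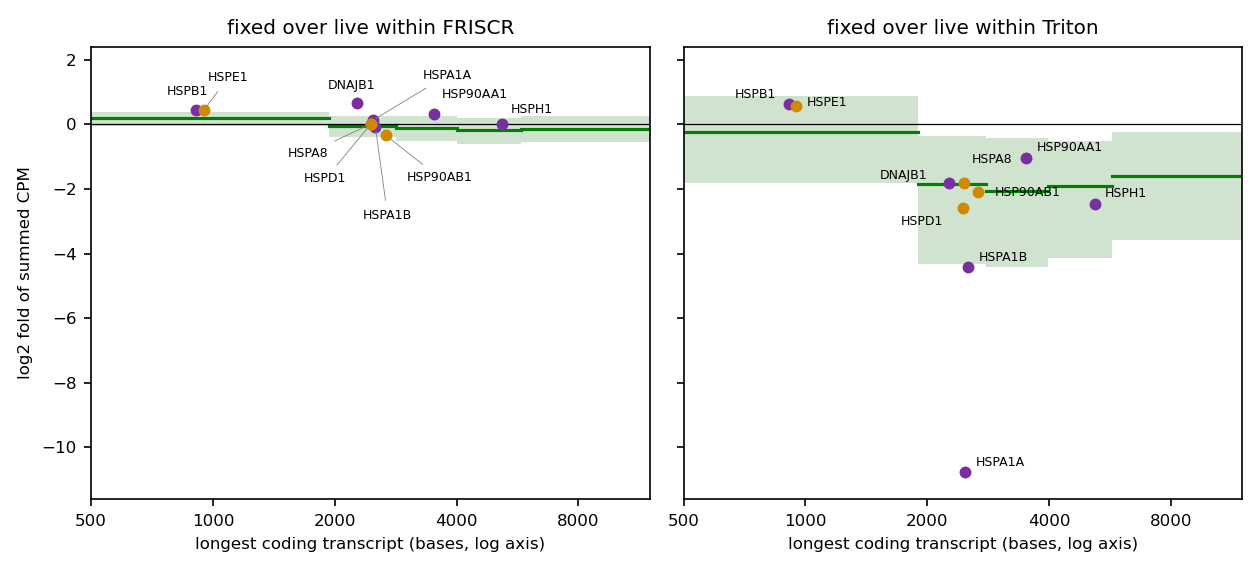
Log2 fold of summed CPM (fixed over live) of each member against the length of its longest coding transcript (log axis), with purple for inducible and orange for constitutive members; green lines and shading give the median and quartiles of all genes in 5 length classes, the outer ones cut off at the axis limits. Within Triton the 2 shortest members lie with the shortest genes. The HSPA1A row, which shares most of its sequence with HSPA1B, lies far below its class.

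Between preparations of live cells, differences were small. No member was past 2-fold, where 6.57% of 7447 genes were more than 2-fold higher with FRISCR and 3.14% more than 2-fold lower, with a median log2 fold of 0.10. HSP90AA1 was 1.41-fold higher with FRISCR (1.40 to 1.43), at 1596 against 1131 CPM, with log2 folds of 0.89 in set 1 and 0.17 in set 2. DNAJB1 was 1.39-fold lower (1.35 to 1.43), at 97.7 against 136 CPM, with log2 folds of -0.77 and -0.21. HSPA1A had a log2 fold of -0.43, but of -1.41 in set 1 and 0.78 in set 2, and HSPA1B one of 0.12, with -0.90 and 1.45. Live Triton replicate 1, which held 140 TPM of HSPA1A and 53.8 TPM of HSPA1B, weighs on both: without it HSPA1B was 1.99-fold higher with FRISCR, HSPA1A stood at log2 0.09, and the sum of both rows at 0.30 instead of -0.29. The other 6 members lay between log2 -0.06 and 0.13, but for each the library sets went in opposite directions. The widest were HSPE1, at -0.28 in set 1 and 0.51 in set 2, and HSPB1, at -0.39 and 0.39.

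In fixed cells, 8 members were more than 2-fold higher with FRISCR than with Triton lysis and none was more than 2-fold lower, where 59.8% of 7272 genes were higher by that much and 10.6% lower, with a median log2 fold of 1.53. This comparison shares its cells with both fixation comparisons and adds no separate evidence. HSPD1 was 6.64-fold higher (6.48 to 6.81), at 1529 against 230 CPM, HSP90AA1 3.57-fold, HSP90AB1 3.49-fold and HSPA8 3.49-fold. In TPM these 4 genes and HSPH1 were higher in every fixed FRISCR than in every fixed Triton cell, as were 6.82% of the 7272 genes. This share too is not matched for level. HSPH1 was 5.37-fold higher, or 10.6-fold without fixed Triton replicate 2, DNAJB1 3.98-fold, or 66.6-fold without fixed Triton replicate 5, and HSPA1B 21.8-fold, or 48.6-fold without fixed Triton replicate 2. HSPA1A had 2662 counts against 1, a ratio of 1416 (254 to 55949), and was at least 395-fold higher without replicate 2. The sum of HSPA1A and HSPA1B was 77.5-fold higher (52.4 to 120), or 180-fold without replicate 2. HSPB1, at 72.1 against 80.6 CPM, and HSPE1, at 734 against 738 CPM, were close by total counts, but stood at log2 -1.69 and -1.54 relative to the median of all genes and at -1.42 and -1.27 with median-of-ratios factors.

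Inducible and constitutive members were also compared as classes of 6 and 4 genes. The median log2 fold between fixed and live FRISCR cells was 0.22 over the 6 inducible and 0.02 over the 4 constitutive members, and the difference of 0.20 was 0.60 in set 1 and -0.19 in set 2. Within Triton the class medians were -2.13 and -1.95, a difference of -0.18, which became -0.96 and -0.71 in the sets and -1.47 without fixed Triton replicate 5. In live cells FRISCR and Triton gave class medians of -0.02 and 0.09, and in fixed cells 2.21 and 1.80, a difference of 0.41 that was 1.42 and 1.05 in the sets. The same contrast of the classes within each cell had a median of -4.66 over live FRISCR (SD 1.03), -4.22 over fixed FRISCR (SD 0.685), -4.51 over live Triton (SD 0.844) and -5.57 over fixed Triton cells (SD 0.850), on the log2 scale. The fixed Triton median was the lowest, and the ranges of cells overlapped between the groups. The class of HSPA1A, HSPA1B, DNAJB1 and HSPH1 alone, without HSP90AA1 and HSPB1, stood further below the constitutive class within Triton, by 1.48 on the log2 scale.

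Ratios of members within the same cell do not depend on total counts. The ratio of HSP90AA1 to HSP90AB1 in TPM had a lowest, median and highest value of 0.192, 0.289 and 0.417 for live FRISCR and 0.342, 0.465 and 0.611 for fixed FRISCR cells, so that fixed cells lay mostly, but not all, above live ones. The set medians were 0.276 and 0.342 in live and 0.465 and 0.450 in fixed cells. In live Triton cells the ratio was 0.115, 0.248 and 0.313, and the library sets did not overlap: set 1 ran from 0.115 to 0.185 and set 2 from 0.248 to 0.313. It was above 1 in 1 of 7 fixed Triton cells and in no other cell. The ratio of HSPE1 to HSPD1 was 0.552, 0.918 and 1.60 for live FRISCR, 0.773, 1.33 and 1.65 for fixed FRISCR, 0.495, 0.979 and 1.41 for live Triton and 1.64, 14.7 and 32.0 for fixed Triton cells. The lowest fixed Triton cell lay beside the highest FRISCR cells, and the other fixed Triton cells lay above every cell of the other groups. The library sets went in opposite directions for this ratio, with medians of 0.770 and 1.09 for live FRISCR and of 1.15 and 0.789 for live Triton cells.

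**Figure D4:**
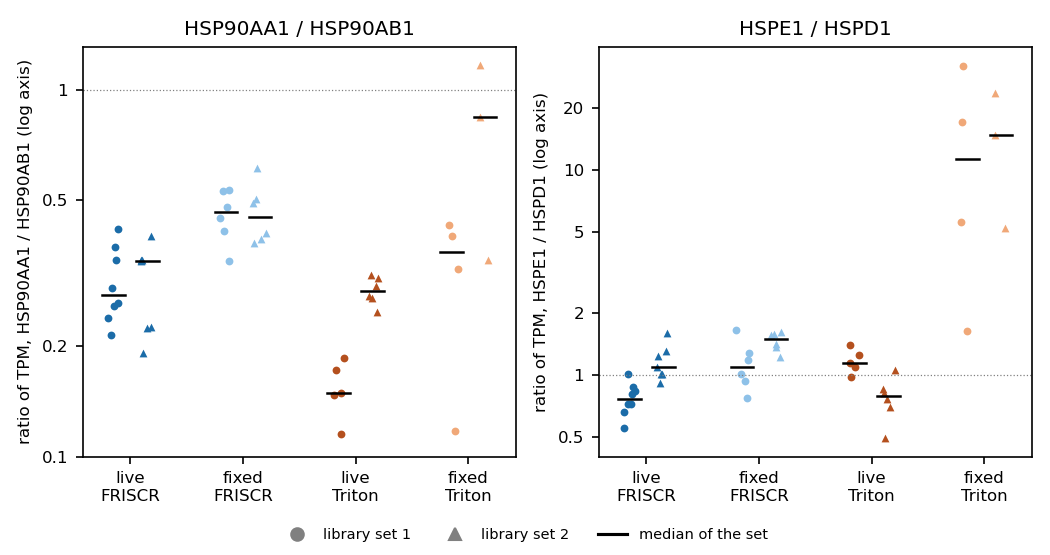
Ratio of TPM within each cell (log axes) for HSP90AA1 over HSP90AB1 (left) and HSPE1 over HSPD1 (right), by group and library set, with bars at the set medians and a dotted line at 1. Set 1 of the live Triton cells is lowest on the left, and the fixed Triton cells reach 32.0 on the right.

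HSPD1 and HSPE1, which share the stretch between their starts shown above, varied together within some groups. The Pearson correlation of log2(CPM + 1) about the means of group and library set was 0.77 over 15 live FRISCR, 0.48 over 12 fixed FRISCR, 0.39 over 11 live Triton and 0.14 over 7 fixed Triton cells. Over all 45 cells it was 0.31, and HSPE1 ranked 988th of 6625 genes for HSPD1 and HSPD1 403rd for HSPE1. Over the 38 cells outside the fixed Triton group it was 0.62, with ranks of 10 and 17. All such correlations are descriptions, since the cells share libraries, depth and total scaling.

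**Figure D5:**
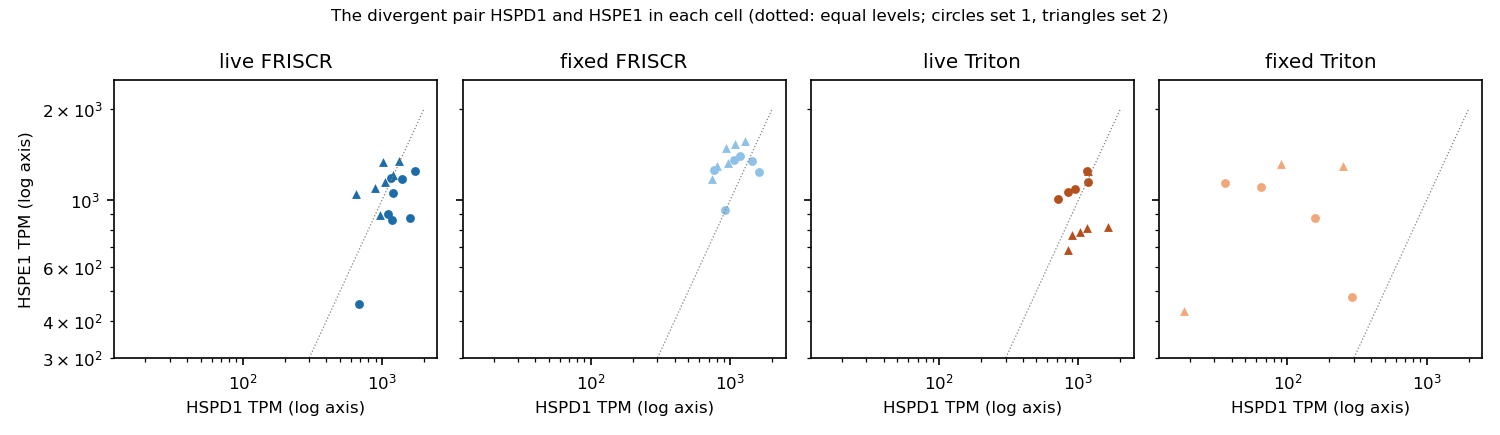
TPM of HSPE1 against HSPD1 in each cell (log axes with different spans), one panel per group, circles for library set 1, triangles for set 2 and a dotted line at equal levels. Fixed Triton cells lie at low HSPD1, with HSPE1 from 430 to 1322 TPM.

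The inducible members did not vary as a block. Outside the fixed Triton group DNAJB1 correlated with HSPH1 at 0.49 and with HSP90AA1 at 0.50 over 38 cells. These values were 0.71 and 0.85 for live FRISCR, -0.16 and -0.41 for fixed FRISCR and -0.04 and 0.05 for live Triton cells. Live FRISCR replicates 11, 8 and 5 had the lowest DNAJB1 of their group, at 1.21, 6.88 and 18.5 TPM. They also had its lowest HSPH1, at 19.1, 13.7 and 17.9 TPM, and HSP90AA1 of 461, 678 and 679 TPM. Correlations without these cells were not computed. HSPA1A and HSPA1B correlated at 0.35 for live FRISCR, 0.69 for fixed FRISCR and 0.50 for live Triton cells; HSPA1B was too low for a rank among genes. Over all 45 cells the median correlation was 0.08 among 10 inducible pairs, 0.07 among 6 constitutive pairs and 0.11 among 20 mixed pairs. Pairs with HSPA1B were left out of these medians. Their order depends on the fixed Triton cells, since mixed pairs had the lowest median without that group. HSP90AA1 and HSPA8 reached 0.66 over 45 cells and -0.02 without the fixed Triton cells.

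The genes most like each member over 45 cells mostly held their place only with the fixed Triton cells included. For HSPA1A they were PWP2 (0.64), PLK1 (0.63) and HIF1AN (0.63), which stood at 0.67, 0.68 and 0.65 without that group. For DNAJB1 they were GDPD2 (0.70), DNTTIP2 (0.67) and DHX29 (0.66), at 0.55, 0.60 and 0.67 without it. For HSPH1 they were MRPS34 (0.80), BCAT1 (0.74) and PSME2 (0.74), at 0.39, 0.20 and 0.14 without it. For HSP90AA1 they were YWHAQ (0.80), HNRNPC (0.78) and RANBP1 (0.77), and for HSPB1 PSMB3 (0.83), UQCRC1 (0.75) and PSMG1 (0.75), none above 0.33 without it. For HSPA8 they were HNRPDL (0.84), YWHAQ (0.79) and AMD1 (0.78), for HSP90AB1 PRMT5 (0.74), TSPYL1 (0.73) and LMAN2 (0.73), for HSPD1 EEF1E1 (0.82), TMEM14B (0.82) and NUDC (0.81), and for HSPE1 MCM5 (0.74), S100A11 (0.69) and COX7B (0.66). Without the fixed Triton cells the first of each fell to 0.43 for HNRPDL, 0.11 for PRMT5, 0.46 for EEF1E1 and 0.50 for MCM5. The genes then most alike were PLK1 for HSPA1A (0.68), POLE2 for DNAJB1 (0.71), CHMP2B for HSPH1 (0.66) and HMGN2 for HSP90AA1 (0.63). They were NUDT5 for HSPB1 (0.64), PRKAA1 for HSPA8 (0.65), CCT5 for HSP90AB1 (0.64), L1TD1 for HSPD1 (0.73) and CCDC72 for HSPE1 (0.74). All genes named here were picked as the highest among 6625 over few cells, which by itself favours high values.

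The wider chaperone network was taken from a list of 50 genes of co-chaperones, other Hsp40 and Hsp70 proteins, heat shock factors and mitochondrial chaperones. Within FRISCR, 44 were measured, of which 0 were more than 2-fold higher and 3 more than 2-fold lower in fixed cells, beside 3.34% and 7.69% of all genes, and the median log2 fold was -0.08. UNC45A, which assists Hsp90 in folding myosin, was lowest at -1.61 (-1.81 and -1.37 in the sets), and CLPX, which unfolds proteins of the mitochondrial matrix for ClpP, highest at 0.57 (0.89 and 0.06). Within Triton, 42 were measured, 28 lower and 3 higher by over 2-fold, with a median of -1.77, beside 58.5% and 12.4% of all genes and their median of -1.50. UNC45A was again lowest, with 2 counts in fixed against 3584 in live cells, a ratio of 903 in CPM (249.9 to 7462). HSCB, an Hsp40 protein of iron-sulphur cluster assembly, was highest at 2.16 (1.29 and 2.80). The median of HSCB over cells went the other way, at 2.31 TPM (0 to 149) in fixed against 17.5 (6.51 to 42.1) in live Triton cells. Its summed fold thus rests on the highest fixed cells. Between live preparations 1 of 43 was more than 2-fold higher with FRISCR, HSPA2, an Hsp70 gene known for its role in sperm, at 1.88, and none lower, with BAG4 lowest at -0.89, against 6.57% and 3.14% of all genes. In fixed cells 30 of 44 were more than 2-fold higher with FRISCR and 4 lower, against 59.8% and 10.6% of all genes, from HSCB at -2.21 to UNC45A at 9.04. There too the median of HSCB over cells went the other way, at 13.7 TPM with FRISCR against 2.31 with Triton. The 3 most abundant genes of the list by mean TPM in live FRISCR cells were PTGES3 (the Hsp90 co-chaperone p23), DNAJA1 and DNAJB6, both Hsp40 proteins, with medians of 733, 520 and 320 TPM, between those of HSP90AA1 and HSPB1. In fixed Triton cells their medians were 54.5, 36.9 and 0.54 TPM, and 703, 331 and 268 for fixed FRISCR cells.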

How the data were processed

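Per the labels' protocols, libraries of single H1 cells were made by Smart-seq2 followed by Nextera XT. The authors deposited 2 tables of 23045 genes by 45 cells, one of estimated counts (40.3% of nonzero values are not whole) and one of TPM. Per the submitters' processing notes, the genome build was GRCh37 (hg19). Which aligner, quantifier and annotation the authors used is not given in the sources used here. Reads carry no molecular identifiers.

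Rounded counts were added up within each group and scaled to CPM by the group's total, from which log2 folds were taken. Ratios carry exact 95% intervals from the binomial split of both counts, and groups without any count were given 3 counts in all as a floor. No cell was left out; 0 pairs of cells had identical values. The labels tell of no separate cultures, so a group is 1 sample and no p-value or standard error was computed. Groups follow the labels' sample group, and both library sets were also compared alone. The background was formed by genes that reached 20 CPM in 1 of both groups, and detection used 1 count after thinning each cell to 1000000 counts.

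Correlations used log2(CPM + 1) centred on group and library set, over genes averaging 20 CPM or more. Named genes were all 10 members, the 3 genes most like each, and from the network list the 3 most abundant and the most extreme each way per comparison. The genes most like each member without the fixed Triton cells were named after their values were seen. Members and lists were chosen with earlier results of these data known. Alternatives were scaling in R 4.3.3 by TMM (edgeR 4.0.16) or by median-of-ratios factors (DESeq2 1.42.0), totals without 44 rRNA-named and 5 abundant unmatched rows, a 1.5-fold threshold, means of CPM or TPM, single library sets, leaving out each cell, unrounded counts and other classes. Correlations without fixed Triton cells and the share of genes whose cells do not overlap were added after seeing the data. The calculation of the folds was checked on simulated summed counts of known fold. These hold counting error but no spread between cells, so the check says nothing about that spread. Transcript lengths came from GENCODE release 29 (GRCh38) by symbol for 97.9% or more of the genes compared, and promoters from RefSeq on GRCh38.p14; no coordinates of the files' build were used. Python 3.11.15, pandas 2.3.3, scipy 1.17.1 and matplotlib 3.10.9 were used.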

Additional observations from a re-analysis of the deposited data

Results flagged for a closer look

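In the fixed Triton group, 1 of 7 cells stood far from the others for DNAJB1 and HSPA1B, by the gap to the nearest cell against the group's range. DNAJB1 stood at 161.34 TPM in replicate 5, on 1072 counts, where the next cell held 3.56 TPM. HSPA1B stood at 1.41 TPM in replicate 2, on 15 counts, where the next cell held 0.29 TPM. HSPA1A stood at 0.10 TPM in the same replicate, on 1 count, where the other 6 cells held 0, so that the gap equals the range by construction and says nothing about that cell. The limit used marks about 1 in 20 groups by chance only if values are normally distributed. TPM that are mostly near 0 with a long tail are not, so the rate for these genes is not known. Groups of more than 10 cells were not examined in this way, so that only the 10 members of the fixed Triton group were.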

How the results depend on the processing

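For the counts of members past 2-fold and the class differences, 364 of 382 values under alternatives kept within the limits of the reported value. For class differences the limit was an SD over cells, 1.03 within FRISCR and 0.85 within Triton, larger than the differences themselves. A turn from 0.20 to -0.19 within FRISCR in library set 2 thus counted as kept. So did 6 instead of 8 members lower within Triton in set 2. Log2 folds of single members were held to their counting-error intervals, where 125 of 400 values kept within them and 275 did not. The exceptions among the 382 follow, and their cause was not tested beyond what each setting changes by construction. In the Triton fixation comparison, members more than 2-fold lower numbered 8, but 5 with TMM and 4 with median-of-ratios factors, and members more than 2-fold higher numbered 0, but 2 with TMM, 2 with median-of-ratios factors, 2 without the abundant rows and 1 at 1.5-fold. In fixed cells, 8 members were higher with FRISCR, but 4 with TMM and 4 with median-of-ratios factors, which also put 2 members lower each. At 1.5-fold, 1 member was higher in fixed FRISCR cells. In live cells library set 2 alone put 1 member higher with FRISCR and set 1 alone 1 lower. The class difference within Triton moved from -0.18 to -1.48 with the narrower inducible class. The class difference between fixed preparations moved from 0.41 to 1.42 in library set 1 and 1.63 with the narrower class. The log2 fold of HSP90AA1 within Triton turned from -1.03 to 0.17 with median-of-ratios factors. Leaving out each cell in turn gave class differences of -1.47 to 0.20 within Triton, 0.12 to 1.62 in fixed cells (both far ends without fixed Triton replicate 5), -0.19 to -0.01 in live cells and 0.13 to 0.34 within FRISCR, and 7 to 8 members lower within Triton. HSPA1B had a count in 1 of 7 fixed Triton cells after thinning, in 6 of 7 without thinning and in 0 at 5 counts. No paired analysis was possible because the replicate numbers were given in accession order and no test was run. With 7 shallowly detected fixed Triton cells, low members there are limited by single cells.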
